A study of Mus musculus with 6 samples.

Results

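The genes described here are 3 kinases of the CDC2-like family (Clk1, Clk2 and Clk4) and 7 serine/arginine-rich (SR) splicing factors (Srsf1, Srsf2, Srsf3, Srsf5, Srsf6, Srsf7 and Srsf11). They were chosen by name, 10 of the 33084 genes in the count table, because the CLK kinases are relatives of DYRK1A and SR proteins are substrates of kinases of this kind. RNA was sequenced from microdissected mouse forebrains at embryonic day 15.5. There were 3 libraries labelled wt, called controls here, and 3 libraries of the genotype Dyrk1a<DlxCre/+>, called mutants. Cre inactivates Dyrk1a there in the Dlx5 domain, where the GABAergic neurons of the ventral forebrain arise. The genotype is written with 1 wild-type allele. The labels give no strain, sex or litter, and they do not say whether controls carried the Cre driver or the conditional allele. Each library holds the whole forebrain, so cells outside that domain contribute RNA to every value. Fewer cells of a type and less RNA per cell cannot be told apart in such samples. Nothing in the labels says that the 3 samples of a group came from separate litters, so p-values measure only the spread between these samples, which may be partly technical.

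SR proteins bind exonic enhancer sequences in pre-mRNA through RNA recognition motifs and recruit the splicing machinery through a domain rich in alternating arginine and serine. Phosphorylation of that domain by cytoplasmic SRPK kinases carries SR proteins into the nucleus, and further phosphorylation by nuclear CLK kinases releases them from speckles to active genes. DYRK1A belongs to the same kinase group as the CLKs and is known to phosphorylate several SR proteins. Members of both families limit their own supply through alternative splicing: SR genes include poison exons that send the transcript to nonsense-mediated decay, and Clk1 and Clk4 keep incompletely spliced transcripts in the nucleus.

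The features that name both families can be read in the coding sequences, which were taken from the GENCODE M21 transcripts (GRCm38). The CLKs are known as LAMMER kinases after a signature in the catalytic domain. It lies in exon 11 of the transcript with the longest coding sequence in each gene, at chr1:58412982-58413011 (reverse strand) in Clk1, chr3:89175407-89175436 (forward strand) in Clk2 and chr11:51280373-51280402 (forward strand) in Clk4. The 30 bases around it are shown because they carry the family's name and show how far the paralogues differ at the nucleotide level, with the 18 bases of the signature in capitals.
Clk1: gaacatTTAGCAATGATGGAAAGGattctt
Clk2: gagcatCTAGCCATGATGGAAAGGatcctg
Clk4: gagcacCTGGCAATGATGGAGCGGatctta
Within the 18 bases, Clk1 differed from Clk2 at 2 positions and from Clk4 at 4. Over the aligned coding sequence Clk1 and Clk4 shared 74.6% of bases, Clk1 and Clk2 65.2%, and Clk2 and Clk4 66.3%. No other annotated transcript matched any of the 3 kinases at 95% identity or more over at least 300 bases.

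The SR genes were compared by their arginine-serine repeats. The 3 stretches below are the 10 codons densest in adjacent arginine and serine codons in the member with the highest read count, the member with the smallest p between genotypes and the member with the sparsest repeats, with arginine codons in capitals. They lie at chr11:88049469-88049498 (forward strand, exon 4) in Srsf1, chr11:116852286-116852315 (reverse strand, exon 2) in Srsf2 and chr3:158017842-158017871 (reverse strand, exon 8) in Srsf11.
Srsf1: AGAtctCGAtctCGAagcCGTagtCGTagc
Srsf2: CGCagcCGAtctCGAagcCGGagtCGGtcc
Srsf11: AGAcattcgAGAtcaAGAtctCGCtcgAGG
Adjacent arginine and serine codons made up 23.6% of neighbouring codon pairs in Srsf2, 23.2% in Srsf7 and 21.9% in Srsf6, against 11.9% in Srsf1 and 8.04% in Srsf11. The kinases carry such pairs as well, at 3.11% in Clk1, 4.21% in Clk2 and 1.88% in Clk4. Among the SR genes, Srsf3 and Srsf5 had annotated near-identical copies, by the same limits of identity and length. Of the 4 copies of Srsf3, 3 were in the count table with 20 counts over all 6 libraries, against 54320 for Srsf3, and the single copy of Srsf5 had 18 counts against 30958. Whether reads that fit several genes were counted is not stated, so the counts of Srsf3 and Srsf5 are uncertain to that extent.

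All 10 genes share an annotation feature that did not enter their choice. Each has at least 1 transcript of the type nonsense-mediated decay and at least 1 with a retained intron, whereas 20.9% of the 14789 tested protein-coding genes have both. The 10 genes also have more annotated transcripts, a median of 10.5 against 5, which makes holding both types more likely. The shares were not compared at an equal number of transcripts. Of 104 annotated transcripts of the 10 genes, 32 are protein coding, 18 are of the decay type and 43 retain an intron. Clk1 has 1 protein-coding transcript of 13, with 7 that retain an intron. Srsf11 has 5 of 19, with 11 that retain an intron. The counts sum all of these, so a shift between productive and unproductive transcripts at a constant total cannot be seen in them.

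**Figure D1:**
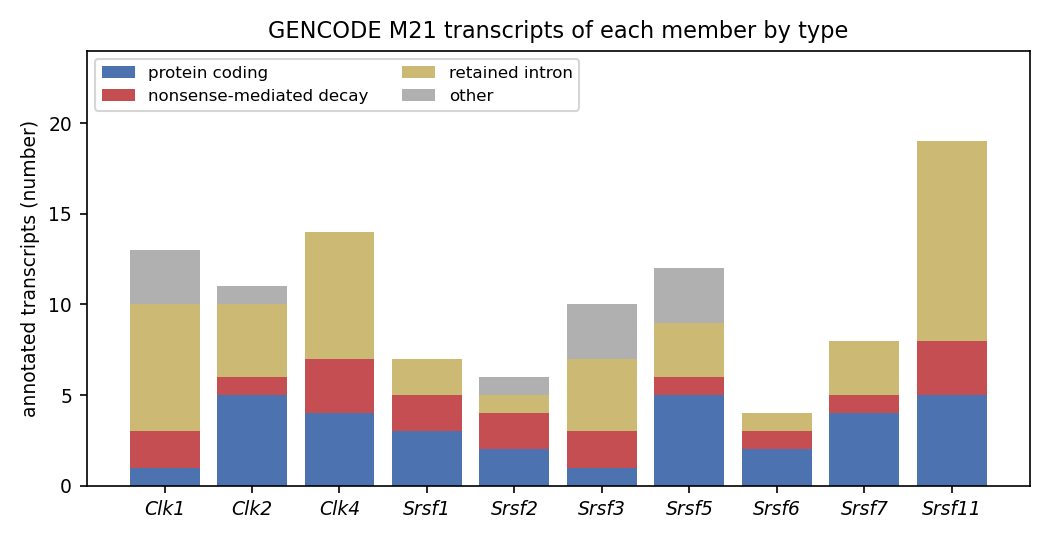
Stacked bars give the number of annotated transcripts (vertical axis) of each of the 10 genes (horizontal axis), split by transcript type in GENCODE M21. Every bar holds both a nonsense-mediated decay and a retained intron part, and Srsf11 is the tallest with 19 transcripts.

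The libraries held between 24646616 and 38315004 counts. The targeted gene, Dyrk1a, averaged 177 ± 7.58 CPM (counts-per-million, scaled by TMM) over the 3 controls and 175 ± 14.6 CPM over the 3 mutants (SD). This count covers the whole gene and does not single out the deleted part, so it does not check the labels. The most abundant of the forebrain markers examined were Neurod6, of cortical neurons, at 211 to 259 CPM over the 6 libraries, and Dlx1, of ventral forebrain neurons, at 81.3 to 105 CPM. The replicate 3 libraries of both groups stood apart from the other 4: the 10 markers of proliferating cells summed to 1769 CPM in controls and 1860 CPM in mutants at their highest, both in replicate 3, and to 1020 and 1113 CPM at their lowest. Hbb-y, an embryonic globin of primitive red cells, stood at 321 and 322 CPM in replicate 3 of controls and mutants and at 27.8 to 42.5 CPM in the other 4, and the maturing neuron gene Camk2b at 96.6 and 83.2 CPM against 153 to 170 CPM. Immediate early genes, which respond to stimulation and handling, had 8 of 8 tested members above 0 in mutants, against 47.5% of all tested genes. Their median log2 fold change was 0.28. The unadjusted p of edgeR's test was under 0.05 in 2 of the 8 and in 1.92% of all tested genes. Jun was 1 of these, at 0.32 with an unadjusted p of 0.042, while Btg2, the most abundant of the 8, was at 0.005 with an unadjusted p of 0.98. Every mutant library was above every control library in 4 of the 8 and in 3.19% of all tested genes, and 0 were called by edgeR. The immediate early genes summed to 107 to 142 CPM in controls and 121 to 153 CPM in mutants, and their part in the results below was not tested. Mutant replicate 2 stood apart by base composition: genes in the lowest 10% of GC content lay at -0.33 log2 units from the control mean there and genes in the highest 10% at 0.24, while the other 5 libraries lay between -0.14 and 0.09 in both classes.

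Between genotypes, none of the 10 genes passed the test. Across 19616 tested genes, the quasi-likelihood test of edgeR, adjusted by Benjamini-Hochberg, called 0 genes at a threshold of 0.05 (0.00%), and the adjusted p was 0.9999 for each of the 10. The unadjusted p was under 0.05 in 376 genes (1.92% of those tested) and in 0 of the 10. DESeq2, run without that filter, likewise called none, and its unadjusted p was under 0.05 in 292 of 31048 genes. The log2 fold changes, mutant over control, ran from -0.02 in Srsf11 to 0.21 in Srsf2, with 8 of 10 above 0 and a median of 0.03, against 47.5% above 0 and a median of -0.01 over all tested genes. That count was 3 of 10 without mutant replicate 3 or with replicates 1 and 2 only, and 10 of 10 without mutant replicate 2 or with each library's trend in GC content and length removed. Their 95% intervals reached no further than -0.32 and 0.46. A change of the whole-forebrain total by a factor of 1.5 therefore lay outside every interval, while values inside a gene's interval cannot be told apart with these 6 libraries. The intervals are per gene and unadjusted, so they do not mark which changes would have been called.

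**Figure D2:**
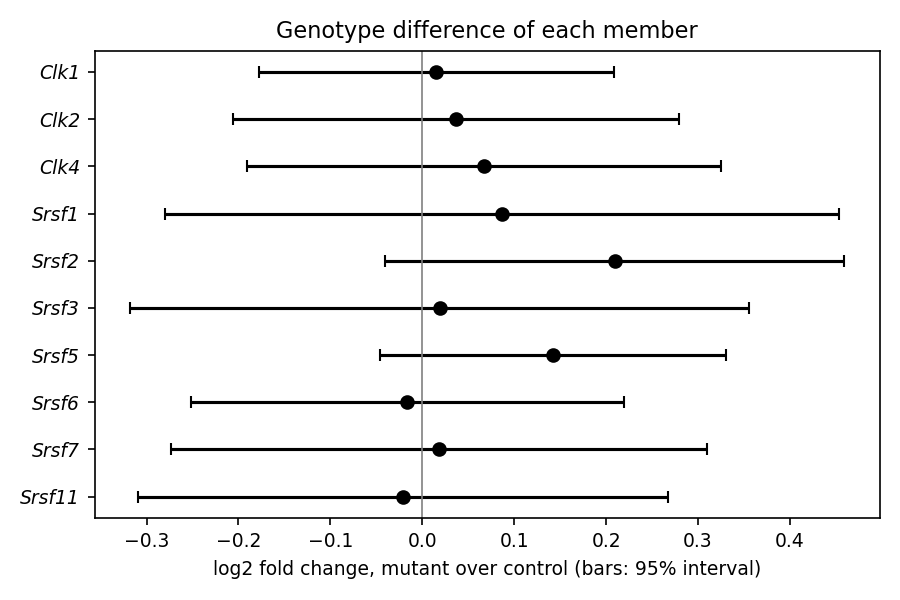
Points give the log2 fold change, mutant over control (horizontal axis), of each gene (vertical axis), and bars its 95% interval from edgeR's fit over 19616 genes. All 10 intervals include 0, and Srsf2 at 0.21 and Srsf5 at 0.14 lie farthest to the right.

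The median standard deviation of log2 CPM within a group was 0.14 over the 3 kinases, 0.19 over the 7 SR genes and 0.12 over the 4996 tested genes above 50 CPM. Clk1, which phosphorylates SR proteins in nuclear speckles, stood at 171, 166 and 169 CPM in control replicates 1, 2 and 3 and at 171, 158 and 183 CPM in the mutants. The control values lay inside the range of the mutants, and the log2 fold change was 0.02 ± 0.09 (SE). The 95% interval allows a change between -11.6% and 15.6%.

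Clk4, the closest paralogue of Clk1, stood at 86.6, 89.8 and 85.2 CPM in controls and at 90.6, 77.9 and 106 CPM in mutants. The mutants again spanned the controls on both sides, with a log2 fold change of 0.07 ± 0.11 (SE). An annotated small RNA gene, Gm25082, overlaps Clk4 exons on the same strand by 59 bases and had 619 counts against 15755 for Clk4. Clk2, a CLK kinase also known as a regulator of liver metabolism downstream of insulin, stood at 53.1, 50.7 and 62.7 CPM in controls and 52.1, 59.3 and 59.5 CPM in mutants. Here control replicate 3 was the highest library and the groups overlapped, with a log2 fold change of 0.04 ± 0.11 (SE). Summed over the 3 kinases, the 3 controls averaged 311 ± 5.13 CPM and the 3 mutants 319 ± 27.0 CPM (SD).

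Srsf1, the founding SR protein and a regulator of alternative splicing and mRNA export, had the most counts of the 10. It stood at 457, 451 and 467 CPM in controls and at 469, 371 and 620 CPM in mutants. The controls differed by at most 0.05 log2 units among themselves and the mutants by 0.74, with mutant replicate 2 below and mutant replicates 1 and 3 above all controls. With each library's trend in GC content and length removed, the controls lay at -0.08 to 0.12 log2 units from the control mean and the mutants at -0.06 to 0.44. The log2 fold change of 0.09 ± 0.16 (SE) took its sign from single libraries: it was -0.12 without mutant replicate 3 and 0.25 without mutant replicate 2, with no call in either.

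Srsf3, the smallest SR protein of the set by coding length and a link between splicing and mRNA export, also had its lowest and highest values in mutants, with 310, 296 and 306 CPM in controls and 308, 238 and 378 CPM in mutants. Its log2 fold change was 0.02 ± 0.15 (SE), and it was -0.15 without mutant replicate 3 and 0.17 without mutant replicate 2. Srsf7, a close relative of Srsf3 that carries a zinc knuckle, stood at 197, 184 and 205 CPM in controls and at 191, 166 and 236 CPM in mutants. In both genes the lowest and the highest of the 6 libraries were mutants, replicates 2 and 3. The log2 fold change of Srsf7 was 0.02 ± 0.13 (SE).

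Srsf2, which activates splicing and also helps release paused RNA polymerase II, had the smallest p of the 10. It stood at 177, 214 and 189 CPM in controls and at 229, 198 and 245 CPM in mutants. Mutant replicates 1 and 3 were above all controls and mutant replicate 2 lay between them, so the groups overlapped. The means were 194 ± 18.9 and 224 ± 24.1 CPM (SD over 3 libraries each), which gave a log2 fold change of 0.21 ± 0.11 (SE) with an unadjusted p of 0.0903 and an adjusted p of 0.9999 in edgeR's quasi-likelihood test. Exons of Srsf2 overlap those of Mettl23 by 460 bases and of Mfsd11 by 288 bases on the opposite strand. These 2 genes had 3788 and 6729 counts against 36577 for Srsf2. No source states whether counting used the strand or how reads in shared bases were treated. The count of Srsf2 may therefore hold reads of the partners or lack its own reads from the shared bases.

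Srsf5, an SR protein of the subgroup with a second, variant RNA recognition motif, was the only member whose groups did not overlap. It stood at 155, 169 and 176 CPM in controls and at 181, 186 and 186 CPM in mutants. Every mutant library was above every control library in 1 of the 10 genes and in 626 of all tested genes (3.19%), and every mutant library was below in 0 of the 10 and in 725 of all (3.70%). The log2 fold change was 0.14 ± 0.08 (SE), with an unadjusted p of 0.121 and an adjusted p of 0.9999 in edgeR's quasi-likelihood test, and a 95% interval from -3.12% to 25.7%. Without 1 library in turn, the value of Srsf5 stayed between 0.09 and 0.19 and that of Srsf2 between 0.14 and 0.29, with no call in any of these fits.

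Srsf6 and Srsf11 had the only values below 0. Srsf6, of the same subgroup as Srsf5, stood at 167, 182 and 180 CPM in controls and at 175, 153 and 195 CPM in mutants, a log2 fold change of -0.02 ± 0.10 (SE). Srsf11, an SR-related factor that works with U2AF in choosing splice sites, stood at 180, 194 and 158 CPM in controls and at 179, 147 and 199 CPM in mutants, a log2 fold change of -0.02 ± 0.13 (SE). Its controls were the widest of the SR genes, with a range of 0.29 log2 units. Both values lay above 0, at 0.02 and 0.01, once each library's trend in GC content and length was removed.

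**Figure D3:**
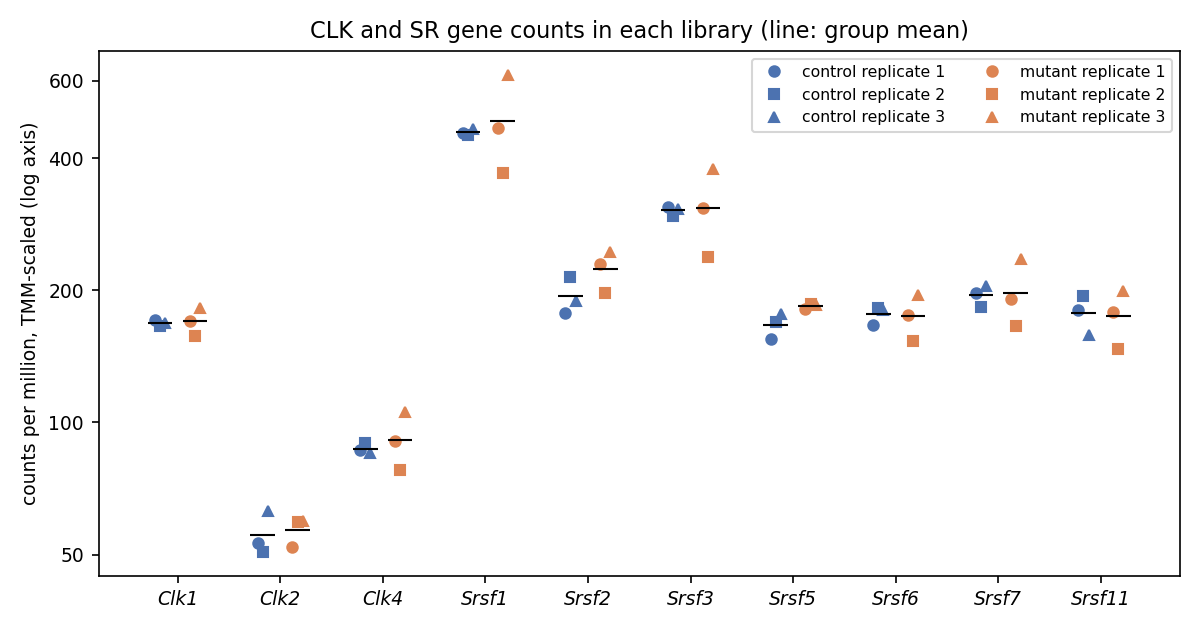
Points give the TMM-scaled CPM (vertical axis, logarithmic) of each gene (horizontal axis) in each of the 6 libraries, coloured by genotype and shaped by replicate, with a line at each group mean. For Srsf1 and Srsf3 the mutants spread from 371 to 620 and from 238 to 378 CPM around tightly grouped controls.

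Levels of different genes can be compared only per length. In CPM per kilobase of annotated exon, the controls ranked Srsf1 first at 80.2 ± 1.40, then Srsf2 at 65.5 ± 6.39, Srsf7 at 54.98 ± 3.04, Srsf5 at 41.9 ± 2.70, Srsf3 at 38.5 ± 0.91 and Srsf6 at 36.7 ± 1.74 (SD, n = 3). Srsf11 at 21.01 ± 2.13 and the kinases Clk1 at 20.7 ± 0.31, Clk4 at 15.04 ± 0.41 and Clk2 at 10.5 ± 1.19 came last. Over the 6 libraries, the ranges of neighbours overlapped between Srsf1 and Srsf2, Srsf2 and Srsf7, Srsf5 and Srsf3, Srsf3 and Srsf6, and Srsf11 and Clk1. The steps from Srsf7 to Srsf5, from Srsf6 to Srsf11, from Clk1 to Clk4 and from Clk4 to Clk2 were between genes whose ranges did not overlap, for Srsf7 and Srsf5 only just, at 46.7 against 46.6 CPM per kilobase. Annotated exons include retained introns, which lengthen some genes more than others. Per kilobase of the longest transcript, Srsf2 ranked above Srsf1, Srsf5 moved from rank 4 to rank 7, and the 3 kinases kept the last 3 ranks.

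In the TMM-scaled values, most of the 10 genes varied in parallel within the mutant group. Their summed level was 1954, 1996 and 1998 CPM in controls and 2046, 1753 and 2406 CPM in mutants. The controls lay within a narrow band, whereas mutant replicate 2 was the lowest and mutant replicate 3 the highest of all 6. By list median the same order held in the other SR and TRA2, SR-related and hnRNP lists described below. Mutant replicate 2 was the lowest library in 7 of the 10 genes and mutant replicate 3 the highest in 8. The exceptions at the low end were Clk2, Srsf2 and Srsf5. The shares of all tested genes with these libraries lowest and highest were not counted. Once each library's trend in GC content and length was removed, mutant replicate 2 was the lowest library only in Srsf3 and Srsf11. Mutant replicate 3 was then the highest in all but Clk1, Clk2 and Srsf5. The standard deviation of TMM-scaled log2 CPM was larger among mutants than among controls in 8 of the 10 genes, Clk2 and Srsf5 being the others, and in 54.7% of the 4996 tested genes above 50 CPM. That count was not made with the trend removed. The median difference between mutant replicates 3 and 2 was 0.39 log2 units over the 10 genes and 0.04 over those 4996 genes. These 2 libraries were picked as the highest and lowest for most of the 10 genes, so a large value there follows from the choice. A signed median over many scaled genes lies near 0 and does not measure how far single genes differ.

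Base composition differs between the 10 genes and the rest, with a median GC content of 41.3% in their longest transcripts against 48.5% over tested genes. Once each library's trend in GC content and length was removed, the median difference between mutant replicates 3 and 2 was 0.26 log2 units over the 10 genes and 0.07 over the genes above 50 CPM. By gene it was then 0.50 in Srsf1, 0.44 in Srsf3 and 0.38 in both Srsf2 and Srsf11, and -0.09 in Clk1 and -0.26 in Srsf5. The part of base composition in the remaining difference was not tested. Replicate 3 minus the mean of replicates 1 and 2 had a median over the 10 genes of 0.03 log2 units in controls and 0.27 in mutants in the TMM-scaled values. With the same trend removed it was 0.17 in controls, with 8 of 10 genes above 0, and 0.24 in mutants, with 9 of 10 above 0. The part of the cell mix of the replicate 3 libraries in these differences was not tested.

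**Figure D4:**
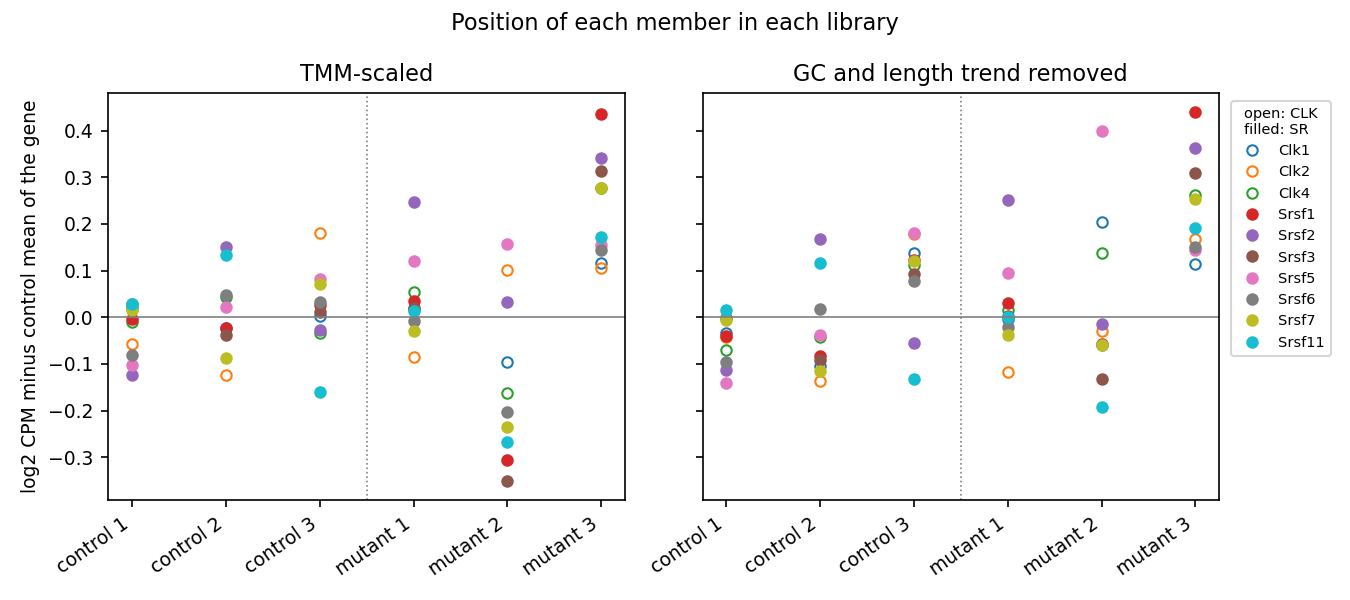
Points give log2 CPM minus the gene's control mean (vertical axis) in each library (horizontal axis), as TMM-scaled values on the left and after removal of each library's trend in GC content and length on the right. On the left most points of mutant replicate 2 lie below 0 and all 10 of mutant replicate 3 above it. On the right several points of mutant replicate 2 move up, with Srsf5 and Clk1 at 0.40 and 0.20, and all 10 of mutant replicate 3 stay above 0.

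The rest of the splicing machinery was examined through 6 lists of other genes. Of 118 such genes 117 were tested, Srpk3 falling below the filter, of which 65 had a value above 0, 52 had one below, and 0 passed the threshold. Their median log2 fold change was 0.02. The unadjusted p of edgeR's test was under 0.05 in 2 of the 117 and in 1.92% of all tested genes. Every mutant library was above every control library in 1 of the 117 and in 3.19% of all tested genes. Every mutant library was below in 3 of the 117 and in 3.70% of all. Other SR and TRA2 proteins numbered 2 of 6 above 0 with a median of -0.02, which was 0.03 with each library's trend in GC content and length removed. In that list Srsf9 had 0.17 ± 0.16 (SE), while Tra2a, Srsf4 and Tra2b had -0.05, -0.03 and -0.02. The other kinases, phosphatases and carriers of SR proteins numbered 7 of 11 above 0 with a median of 0.02. Clk3, the remaining CLK kinase, had 0.08 ± 0.09 (SE), and Prpf4b, a nuclear kinase of splicing factors, had 0.06 ± 0.10. The catalytic subunits of protein phosphatase 1, which removes phosphate from SR proteins, had -0.21 ± 0.19 in Ppp1cb, 0.08 ± 0.11 in Ppp1ca and 0.04 ± 0.12 in Ppp1cc.

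SR-related proteins numbered 16 of 29 above 0 with a median of 0.01, with Scaf1 at 0.28 ± 0.15 (SE), the U1 protein gene Snrnp70 at 0.17 ± 0.10, Rsrp1 at 0.15 ± 0.10 and the speckle protein gene Pnn at -0.13 ± 0.09. The hnRNP proteins, which often oppose SR proteins at splice sites, numbered 9 of 25 above 0 with a median of -0.03. That median was 0.02 with each library's trend in GC content and length removed. Hnrnph3 stood at 62.6, 71.8 and 64.1 CPM in controls and at 58.4, 50.2 and 60.3 CPM in mutants. All 3 mutants were below all 3 controls, with a log2 fold change of -0.23 ± 0.10 (SE), an unadjusted p of 0.0482 and an adjusted p of 0.9999 in edgeR's test. Hnrnpa1 and Hnrnpa2b1, whose proteins compete with SRSF1 in splice site choice, had -0.21 ± 0.10 and -0.19 ± 0.10, and Hnrnpa0 had 0.19 ± 0.13.

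Spliceosome core proteins numbered 25 of 36 above 0 with a median of 0.06. Sf3b5, a small subunit of the SF3B complex that recognises the branch point, had the smallest p of all listed genes, at 22.5, 24.5 and 26.6 CPM in controls and 28.8, 35.8 and 31.9 CPM in mutants. Every mutant lay above every control, with a log2 fold change of 0.39 ± 0.11 (SE), an unadjusted p of 0.00812 and an adjusted p of 0.9999 in edgeR's test. Snrpf, Snrpd3 and Dhx16 had 0.30 ± 0.17, -0.19 ± 0.12 and 0.13 ± 0.09 (SE). Factors of nonsense-mediated decay, which removes transcripts with poison exons, numbered 6 of 10 above 0 with a median of 0.05. Upf1, Upf3a, Smg8 and Smg1 had 0.12 ± 0.14, 0.10 ± 0.11, -0.09 ± 0.11 and -0.06 ± 0.08 (SE).

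**Figure D5:**
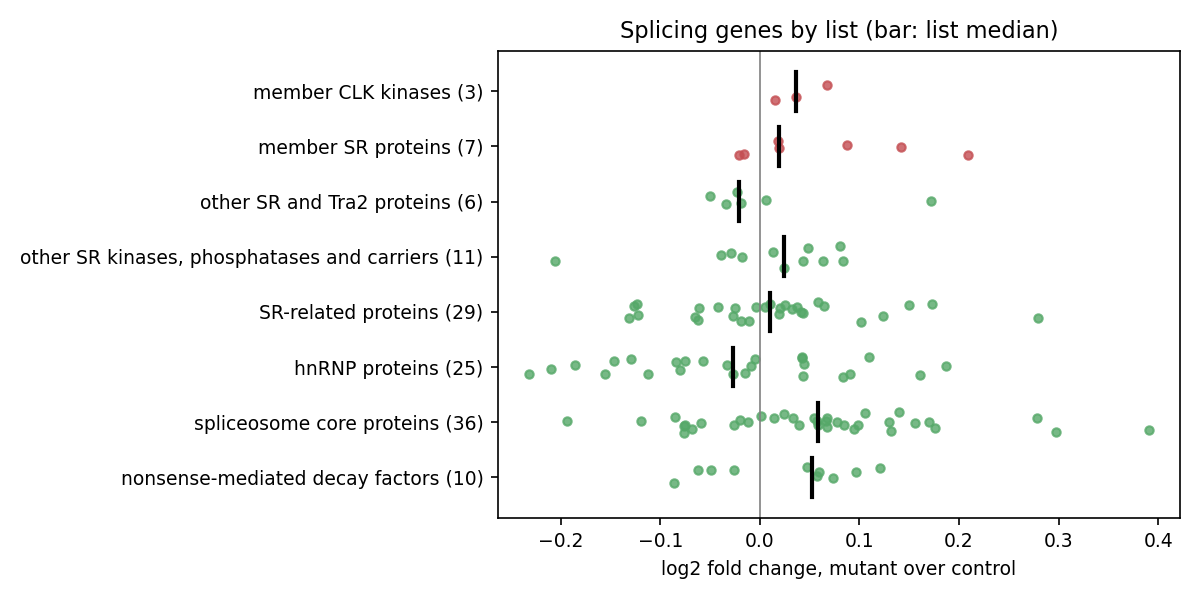
Points give the log2 fold change, mutant over control (horizontal axis), of each tested gene in the 2 member groups (red) and the 6 other splicing lists (green), with the number of tested genes in brackets and a bar at each list median. The medians lie between -0.03 and 0.06, and the points farthest from 0 are Sf3b5 at 0.39 and Hnrnph3 at -0.23.

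Among the 117 other splicing genes, Rbm39, Luc7l3 and Bclaf1 had the profiles most like the median profile of the 10 genes. The measure was the root mean square distance of centred log2 CPM over the 6 libraries, which was 0.03 log2 units in each. All 3 encode SR-related proteins, RBM39 acting with U2AF and LUC7L3 with U1. Relative to its own mean, Rbm39 stood at -0.21 in mutant replicate 2 and 0.24 in mutant replicate 3, beside -0.19 and 0.21 for the median of the 10 genes. Relative to the control mean, list medians in these libraries were -0.14 and 0.13 for hnRNP proteins and -0.09 and 0.13 for SR-related proteins. Other SR and TRA2 proteins had -0.07 and 0.20, and kinases, phosphatases and carriers -0.05 and 0.09. Spliceosome core proteins had 0.10 and 0.14 and decay factors 0.01 and 0.07. These libraries are the same for all genes, so the likeness includes whatever the libraries share in base composition and depth.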

How the data were processed

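The authors deposited 1 table of raw counts, with a row per Ensembl gene and a column per library. Per the labels and the submitters' processing notes, libraries were made with a stranded total RNA kit with ribosomal RNA depletion, although the molecule is given as polyA RNA, and the tools were HTSeq 0.9.1 for counting, HISAT2 for alignment to GRCm38 release 93, SAMtools 1.9 and bcl2fastq 2.17.1.14. Neither the strand setting nor the mode of counting is stated.

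Symbols, positions, transcript types and sequences came from GENCODE M21 on the same build, which named 32888 of 33084 genes. Genes were kept by filterByExpr (count minimum 10, minimum total 15), leaving 19616, scaled by TMM and tested with edgeR 4.0.16 (quasi-likelihood, robust, no covariate) in R 4.3.3. Standard errors were derived from fold changes and F statistics. The fit was tested on simulated data with known answers. Alternatives used DESeq2 1.42.0, limma 3.58.1, other scaling and filters, a replicate block, subsets of libraries and an offset removing each library's trend in GC content and transcript length. Log2 CPM used a prior count of 2. Copies were searched with BLAST 2.17.0.

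The members and lists were chosen with earlier results of these data known. Named were all members, Dyrk1a, up to 4 genes per splicing list with the smallest p, Ppp1cc beside the other phosphatase subunits, and the 3 genes nearest the members' median profile.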

Additional observations from a re-analysis of the deposited data

How the results depend on the processing

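Over 15 alternative fits the median log2 fold change of the 10 genes ranged from -0.07 to 0.13. Leaving out 1 library gave -0.07 (without mutant replicate 3) to 0.13 (without mutant replicate 2). None of the 10 genes was called in any fit, and 0 genes were called in all fits except that of replicates 1 and 2 only, which called 3 genes (Hist1h2ag, Pisd-ps1 and Tmem181b-ps, named after their values were seen). The fitted sign changed in 27 of 150 member values. In limma-voom with sample weights Clk1 was at -0.0068, Srsf3 at -0.0439, Srsf6 at 0.0075, Srsf7 at -0.0383 and Dyrk1a at 0.047. With the GC content and length trend removed, Srsf6 was at 0.0244, Srsf11 at 0.0053 and Dyrk1a at 0.0194. With replicates 1 and 2 only, Clk1 was at -0.0329, Clk4 at -0.0614, Srsf1 at -0.1077, Srsf3 at -0.1447 and Srsf7 at -0.0897. The cause was not tested. Without 1 library in turn, values ran from -0.0357 to 0.0683 (Clk1), -0.0236 to 0.1418 (Clk2), -0.0474 to 0.1695 (Clk4), -0.1231 to 0.2493 (Srsf1), -0.1519 to 0.1737 (Srsf3), -0.1007 to 0.0696 (Srsf6), -0.1277 to 0.1299 (Srsf7), -0.122 to 0.0899 (Srsf11) and -0.0525 to 0.0516 (Dyrk1a).

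Whether the replicate numbers pair the samples cannot be told from these values, because deviations centred within groups of 3 libraries are not independent. Deviations of same-numbered libraries correlated across genes at 0.24, 0.07 and 0.36. The nearest mutant was the same-numbered one for control replicates 1 and 3, while control replicate 2 was nearer to mutant replicate 1 (0.35). With a replicate block 0 genes were called, 765 had an unadjusted p under 0.05 against 376, and Srsf3 was at -0.0055. With the block and the GC content and length trend removed together, 1055 had an unadjusted p under 0.05, among them Clk4, Srsf1 and Srsf5, none called, and Srsf6 was at 0.0235, Srsf11 at 0.0011 and Dyrk1a at 0.0177. That count was 1904 in limma-voom with sample weights, among them Srsf2 and Srsf5. Without a filter it was 587, over 31050 tested genes, and with replicates 1 and 2 only it was 1544. Leaving out 1 library gave from 179 (without control replicate 1) to 1060 (without control replicate 3).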
